A study of Mus musculus with 3 samples.

Results

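Orthologues of 10 human Alzheimer risk genes were followed across brain myeloid cells of mice that carry or lack human CD33. The set was taken as a fixed list of gene names: Bin1, Picalm, Cd2ap, Sorl1, Rin3, Abi3, Ptk2b, Abca7, Ms4a6b and Ms4a6d. All 10 were present in each of the 3 count tables, which together hold 15338 genes. The rule itself uses no measured value, but the list was drawn up with earlier results of these data known.

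The 3 single-cell RNA libraries came from brains of 8-week-old mice, 1 library per genotype. The hCD33m mice (female) carried the short isoform of human CD33, a sialic acid-binding receptor of myeloid cells, and the hCD33M mice (male) carried the long isoform. The Control mice (male) were wild type. The study's main account of its sequencing describes male mice for every genotype, whereas the label of the hCD33m library gives female. By barcode numbers these libraries closely match the study's second experiment, for which its text gives no sex. Per the study's methods, mice were on a C57BL/6 background and each isoform sat behind a floxed stop at Rosa26, with GFP from the same transcript, and was switched on by Cre from the Cx3cr1 locus. Thus expression was limited to the Cx3cr1 lineage, and the counted genes were those of the mouse genome, so the transgene itself was not measured. Whether the Control mice carried Cre is not given in the labels. For its phagocytosis and in situ RNA assays, the study describes wild-type controls with 1 Cx3cr1-Cre allele, without saying so for these libraries. The study's methods describe a sort for CD11b+, CD45+, Cx3cr1+ cells, with transcription inhibitors from perfusion onward and a translation inhibitor added in the buffer that held the brains. Its results text gives the gate as CD45 low and says that cells were pooled within a genotype, without tying this to these libraries. Because hCD33m was the only library labelled female, sex and genotype cannot be told apart in its comparisons.

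The deposited counts are unique molecular identifiers (UMIs), each standing for 1 captured transcript read from its 3′ end. The libraries held 5707, 5100 and 3482 barcodes in the hCD33m, hCD33M and Control libraries, with 32572995, 28387611 and 21529542 UMIs in all. After filtering, 5612, 5046 and 3412 cells remained, with medians of 5137, 5078.5 and 5436.5 UMIs per cell. The hCD33m library shared 10 barcodes with Control and 10 with hCD33M, and the hCD33M library shared 7 with Control. With 1 library per genotype there is no test between genotypes. Each value below is a level in CPM (UMIs of a gene, scaled to the total UMIs of the summed cells), and the 95% intervals are exact and cover counting error only.

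Most of these proteins work along the route by which a cell takes up and sorts membrane cargo. Clathrin-coated pits bud inward, early endosomes sort what arrives, and retromer and sorting receptors send part of it back, while actin remodelling drives the membrane at each step. Microglia, the resident macrophages of the brain parenchyma, depend on this machinery to clear debris, and border-associated macrophages (BAM) do so at the meninges and vessels. Human variants near each of these genes have been tied to late-onset Alzheimer's disease.

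On the mm10 (GRCm38) assembly, the GENCODE vM21 annotation places every member as a protein-coding gene. Bin1 lies on the plus strand of chromosome 18. Picalm lies at chr7:90130213-90213465, Cd2ap at chr17:42792951-42876665, Sorl1 at chr9:41964720-42124297 and Rin3 at chr12:102283048-102390855. Abi3 lies at chr11:95830074-95842476, Ptk2b at chr14:66153257-66281052 and Abca7 at chr10:79996494-80015572. Ms4a6b (chr19:11516512-11531256) and Ms4a6d (chr19:11586604-11604849) belong to 1 cluster of related genes. No member overlapped another protein-coding gene on its own strand. For Abi3, 3 genes overlap on the opposite strand, and no source used here says whether the counting used strand. In the last 500 bases of the coding transcripts, 1.22% of the 50-base stretches of Ms4a6b also occurred in another gene, its neighbour Ms4a6c. The other 9 members shared no such stretch. For Ms4a6c, used below for comparison, the share was 13.7%, with Ms4a6b and 3 further genes. Picalm also holds 4 non-coding gene models on its own strand.

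Cells were clustered without the member genes among the variable genes, and the clusters were named from fixed markers. Microglia-like cells numbered 4876, 4548 and 2991 in the hCD33m, hCD33M and Control libraries, BAM-like cells 127, 100 and 84, and monocyte-like cells 28, 23 and 18. A further 581, 375 and 319 cells of low depth stayed unnamed. None of the 9 microglial markers was at 0 in microglia-like cells of any library. The name was given from these same markers, and none was at 0 in monocyte-like cells either, so this does not check the name. The BAM-like class did not hold up as a pure class: 3 defining microglial genes, P2ry12, Tmem119 and Sall1, stood at 45.8 to 66.9% of their microglia-like level in it. Per cell, the summed level of these 3 genes was below 600 CPM in 125 BAM-like cells and at least 2000 CPM in 149, with the rest between. A cut at 1000 CPM, chosen after the values were seen, left 58, 53 and 32 BAM-like cells low in microglial markers, with 18 cells between 600 and 1000 CPM and 6 between 1000 and 1500 CPM. The low cells had medians of 6182.5, 5174 and 5439 UMIs, and the 69, 47 and 52 cells above the cut had 14778, 11283 and 14725. What gives the cells above the cut both sets of markers was not tested. In the low cells, 6 other microglial markers still stood at 1.24 to 70.3% of the microglia-like level (median 15.7%), and in monocyte-like cells at 2.86 to 16.0% (median 8.06%). The markers differ too much among themselves to set 1 share for microglial RNA, and its part in the members' levels was not tested. With the libraries added, Bin1, Picalm, Cd2ap, Rin3, Abi3 and Ptk2b stood in the low cells at 35.3, 40.5, 62.1, 43.5, 14.4 and 65.0% of their microglia-like level. All of these lie within the range of the 6 markers there.

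Bin1 and Picalm, which bend and coat membrane, were lower in BAM-like cells low in microglial markers and in monocyte-like cells than in microglia-like cells. Bin1 encodes an amphiphysin-family protein that senses and forms membrane curvature. It reached 345, 259 and 222 CPM in BAM-like cells low in microglial markers, 94.9, 123 and 103 CPM in monocyte-like cells, and 813, 810 and 841 CPM in microglia-like cells of the hCD33m, hCD33M and Control libraries. All microglia-like values lay above all others, and the monocyte-like values lay below the BAM-like ones in each library. The log2 ratio to microglia-like cells averaged -1.60 ± 0.35 (SD over 3 libraries) in the low BAM-like cells and -2.95 ± 0.20 in monocyte-like cells. In monocyte-like cells Bin1 stood at 11.7, 15.2 and 12.2% of its microglia-like level. The 6 other microglial markers stood there at 5.90 to 16.0% in hCD33m, 6.29 to 10.7% in hCD33M and 2.86 to 6.63% in Control, so Bin1 lay within their range in hCD33m and above it in hCD33M and Control.

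Picalm, the clathrin assembly adaptor that helps size coated pits, reached 211, 196 and 188 CPM in the low BAM-like cells. In monocyte-like cells it reached 330, 147 and 143 CPM, and in microglia-like cells 557, 454 and 460 CPM. The low BAM-like level was thus below the microglia-like one by at least 2-fold in every library, by -1.30 ± 0.09 on the log2 scale. The median of all genes at the minimum level was itself -0.46 in these cells, and the ratios given here do not remove it. The monocyte-like ratio averaged -1.36 ± 0.52 and was not called, because the hCD33m library, with 66 UMIs over 28 cells, missed the 2-fold limit at -0.76 (-1.13 to -0.41). In the unnamed cells of low depth both genes stood above their microglia-like level in each library, Bin1 at 1122, 1139 and 1221 CPM and Picalm at 804, 665 and 536 CPM. Cd2ap, an adaptor that ties membrane receptors to actin, was not called in either class. It stood at 93.6, 140 and 131 CPM in the low BAM-like cells, 200, 205 and 148 CPM in monocyte-like cells, and 179, 204 and 185 CPM in microglia-like cells. Its log2 ratio in the low BAM-like cells averaged -0.66 ± 0.24, with intervals below 0 in hCD33m at -0.94 (-1.46 to -0.46) and in hCD33M at -0.55 (-1.02 to -0.11). Its monocyte-like log2 ratios of 0.16, 0.00 and -0.32 all had intervals that included 0.

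**Figure D1:**
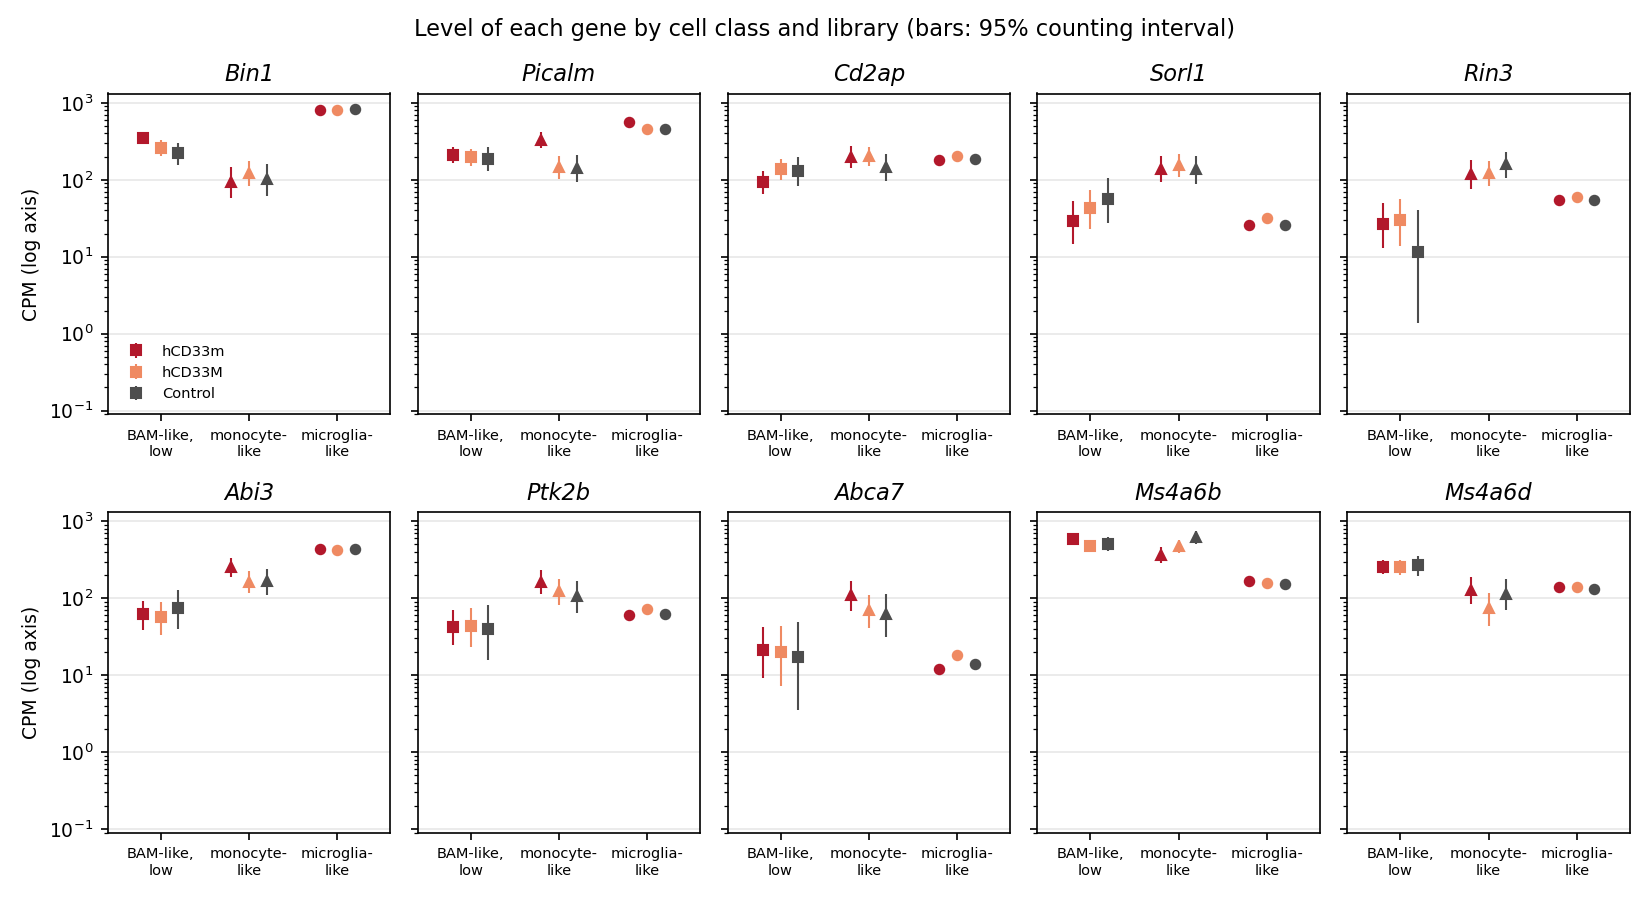
Level of each of the 10 genes in CPM (log axis) in BAM-like cells low in microglial markers, monocyte-like cells and microglia-like cells. Points are the hCD33m, hCD33M and Control libraries with exact 95% counting intervals. Bin1, Picalm and Abi3 are highest in microglia-like cells, while Sorl1, Rin3, Ptk2b and Abca7 are highest in monocyte-like cells, Ms4a6d in BAM-like cells, and Ms4a6b lies above its microglia-like level in both other classes.

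Sorl1 and Rin3, which act at endosomes, were higher in monocyte-like cells. Sorl1 encodes a sorting receptor that works with retromer to return cargo, the amyloid precursor protein included, from endosomes. Its level was 140, 156 and 137 CPM in monocyte-like cells, 29.4, 43.2 and 56.8 CPM in the low BAM-like cells, and 26.0, 31.7 and 25.9 CPM in microglia-like cells. The monocyte-like values did not overlap those of either other class, at a mean log2 ratio of 2.38 ± 0.07 over microglia-like cells. They rested on 28, 38 and 24 UMIs. The counting intervals of the 3 ratios, 1.83 to 2.97, 1.79 to 2.77 and 1.75 to 2.99, were all wider than this SD. Rin3, an exchange factor that activates the early endosomal GTPase Rab5, reached 120, 123 and 160 CPM in monocyte-like cells, 26.8, 29.9 and 11.4 CPM in the low BAM-like cells (10, 9 and 2 UMIs), and 54.8, 60.0 and 55.2 CPM in microglia-like cells. It was thus ordered monocyte-like, microglia-like, BAM-like in every library, with mean log2 ratios over microglia-like cells of 1.23 ± 0.27 in monocyte-like cells and -1.44 ± 0.73 in the low BAM-like cells.

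Abi3 and Ptk2b act on the cytoskeleton. Abi3 is an adaptor of the WAVE actin-nucleating machinery. It reached 61.5, 56.5 and 73.9 CPM in the low BAM-like cells, 255, 164 and 166 CPM in monocyte-like cells, and 431, 427 and 439 CPM in microglia-like cells. The low BAM-like level was 14.3, 13.2 and 16.8% of the microglia-like one, beside medians of 14.9, 16.6 and 14.5% for the 6 other microglial markers there. These markers differed widely, from 2.95 to 53.8% in hCD33m, 1.24 to 70.3% in hCD33M and 1.35 to 49.2% in Control. The part of microglial RNA in the Abi3 level was not tested. The mean log2 ratio of Abi3 was -2.77 ± 0.18 in the low BAM-like cells and -1.18 ± 0.37 in monocyte-like cells. Ptk2b encodes Pyk2, a calcium-responsive kinase of the focal adhesion kinase family. It stood at 165, 123 and 108 CPM in monocyte-like cells, 42.8, 43.2 and 39.8 CPM in the low BAM-like cells and 60.8, 71.4 and 63.1 CPM in microglia-like cells. The monocyte-like log2 ratio was 1.44 in hCD33m and missed the 2-fold call in the hCD33M and Control libraries, both at 0.78.

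Abca7, a lipid transporter of the ABC family, stood below 20 CPM in microglia-like cells of every library, at 12.1, 18.4 and 14.1 CPM. In monocyte-like cells it stood at 110, 69.6 and 62.8 CPM from 22, 17 and 11 UMIs, and in the low BAM-like cells at 21.4, 19.96 and 17.0 CPM from 8, 6 and 3 UMIs. The monocyte-like excess averaged 2.42 ± 0.67 on the log2 scale. The low BAM-like ratios had intervals that included 0 in all 3 libraries. In the unnamed cells, whose median depth was 1087, 1174 and 1606 UMIs, Abca7 stood at 48.7, 60.3 and 57.9 CPM, above the microglia-like level in each library.

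Ms4a6b was higher in both other classes than in microglia-like cells, and Ms4a6d had its highest level in the low BAM-like cells. The MS4A genes encode small membrane proteins that cross the membrane several times, and the mouse Ms4a6 genes are the counterparts of human MS4A6A at an Alzheimer risk locus. Ms4a6b reached 589, 479 and 506 CPM in the low BAM-like cells, 369, 475 and 616 CPM in monocyte-like cells, and 168, 157 and 153 CPM in microglia-like cells. Every value outside microglia exceeded every microglia-like one. The mean log2 ratio was 1.71 ± 0.10 in the low BAM-like cells and 1.58 ± 0.44 in monocyte-like cells. Ms4a6d reached 254, 253 and 267 CPM in the low BAM-like cells, 130, 73.7 and 114 CPM in monocyte-like cells, and 140, 138 and 131 CPM in microglia-like cells. The BAM-like excess of 0.92 ± 0.10 on the log2 scale fell just short of 2-fold in the hCD33m and hCD33M libraries (0.86 and 0.87) and passed it in Control (1.03). In monocyte-like cells Ms4a6d was below its microglia-like level in each library, at -0.40 ± 0.44, with an interval clear of 0 only in hCD33M.

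Ms4a6b and its neighbour Ms4a6c, which is not among the 10, were both higher outside microglia-like cells. Ms4a6c stood at 915, 669 and 778 CPM in the low BAM-like cells, 959, 1433 and 1261 CPM in monocyte-like cells, and 75.8, 73.8 and 64.7 CPM in microglia-like cells. Over the 10 clusters with at least 50 cells, Ms4a6c was the second gene most like Ms4a6b among 8305 genes, with a Pearson r of 0.97 after Ifi47 at 0.98. These are descriptions over points that share libraries. The sequences just before their RefSeq starts (GRCm38.p6, plus strand) are shown because both genes were higher outside microglia-like cells. Each stops before the first base of its window that GENCODE annotates as UTR. The Ms4a6b stretch lies inside its GENCODE gene model, which starts at 11516512. The Ms4a6c stretch ends just before its gene model, which starts at 11469366. Capitals mark runs of at least 20 bases that both 250-base windows hold.
Ms4a6b (chr19:11518309-11518452): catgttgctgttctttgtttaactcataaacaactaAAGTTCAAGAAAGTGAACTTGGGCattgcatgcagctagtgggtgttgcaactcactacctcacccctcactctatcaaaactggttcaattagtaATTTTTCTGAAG
Ms4a6c (chr19:11469118-11469365): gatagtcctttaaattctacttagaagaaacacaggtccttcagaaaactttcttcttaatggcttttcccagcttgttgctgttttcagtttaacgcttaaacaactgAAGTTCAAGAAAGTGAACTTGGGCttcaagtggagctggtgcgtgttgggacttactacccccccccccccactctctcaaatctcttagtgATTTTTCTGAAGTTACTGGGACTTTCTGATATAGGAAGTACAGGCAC
The 2 windows had 2 such runs in common, of 24 and 48 bases. The second run continues in Ms4a6b past the 144 bases shown, into an annotated exon, and 106 bases of its window are not printed.

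The ETS-type letters AGGAAG, chosen after the windows were seen, occurred on either strand in the windows of 2 of the 6 members with a RefSeq window, Ms4a6b and Picalm. The letters GAGGAA, which can overlap with AGGAAG by 5 bases, occurred in 1, Picalm. Of all 27025 genes with a window, 32.3% hold AGGAAG and 25.9% hold GAGGAA. A match is a description of letters, not a site.

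The classes were then compared across all genes. A gene was called higher or lower when the class differed from microglia-like cells by at least 2-fold in the same direction in all 3 libraries, at 20 CPM or more in the higher class. A count of 0 entered as 3 counts, so a gene without a UMI in 1 library of a rare class could still be called higher. In monocyte-like cells 4 of 10 members were called higher (Sorl1, Rin3, Abca7 and Ms4a6b), where 9.88% of 7270 genes were, and 1 was called lower (Bin1), where 13.3% were. In the low BAM-like cells 1 of 9 members at the minimum level was called higher (Ms4a6b), where 5.66% of 7083 genes were, and 4 were called lower (Bin1, Picalm, Rin3 and Abi3), where 8.98% were. The Rin3 call rests on 2 UMIs in the Control library, where the interval of its log2 ratio ran from -5.33 to -0.42. In the whole BAM-like class no member was called, where 3.06% of 6950 genes were higher and 0.0863% lower. There Ms4a6b stood at 398, 367 and 277 CPM and Bin1 at 548, 480 and 594 CPM, between the low cells and the microglia-like cells. The median log2 ratio of all genes was -0.43 in monocyte-like cells and -0.46 in the low BAM-like cells, so a gene at 0 on this scale lay above the typical gene of these classes. The 2-fold calls were taken without removing this shift, so calls of members near the limit depend on the scaling.

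**Figure D2:**
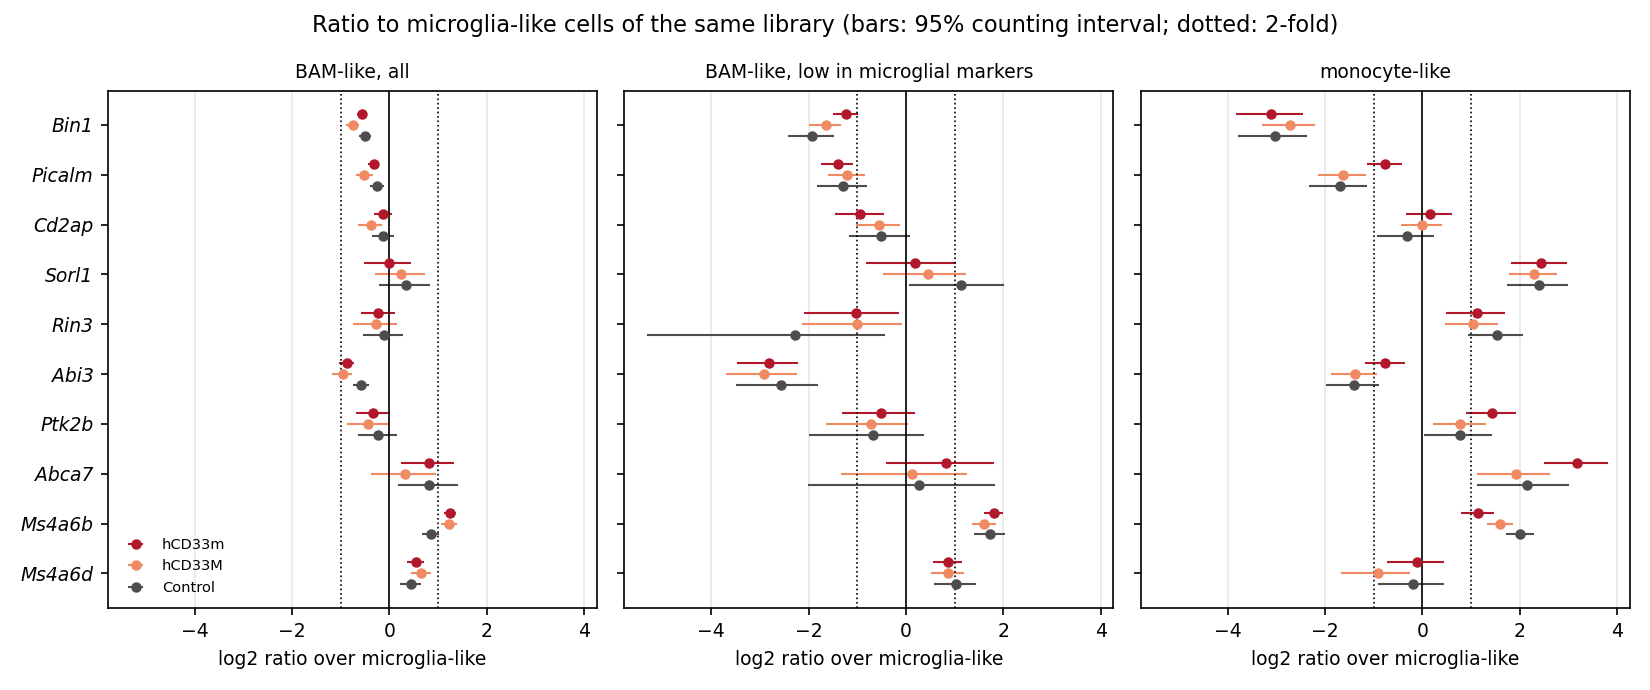
Log2 ratio of each gene in all BAM-like cells, in BAM-like cells low in microglial markers and in monocyte-like cells over microglia-like cells of the same library, with exact 95% counting intervals. Dotted lines mark 2-fold, and points are the hCD33m, hCD33M and Control libraries. Bin1 and Abi3 lie left of the lower line and Ms4a6b right of the upper line in all libraries in the low BAM-like cells, whereas Sorl1 and Abca7 lie farthest right in monocyte-like cells.

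Between genotypes, no member of the microglia-like cells was 1.5-fold apart at 20 CPM or more in any comparison. For hCD33m over Control this was 0 of 9 members at the minimum level, where 1.14% of 6761 genes were apart. For hCD33M over Control it was 0 of 9, where 0.504% of 6748 genes were, and for hCD33m over hCD33M 0 of 9, where 0.889% of 6750 were. The median log2 ratio of these 9 members was -0.01, 0.08 and 0.01 in these comparisons, against -0.00, 0.01 and -0.02 over all genes at the same minimum. Counting intervals clear of 0 were common across the transcriptome at this depth. They held for 4 of 9 members in hCD33m over Control, where 44.1% of genes had one, for 6 of 9 in hCD33M over Control, where 32.7% had, and for 6 of 9 in hCD33m over hCD33M, where 40.9% had. Such intervals narrow as UMIs rise, and the shares over all genes were not matched to the members' levels, so these counts show no excess of members. The comparisons also share libraries. An interval clear of 0 says that 2 libraries differ by more than counting error, not that the genotypes do.

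Picalm stood apart in the hCD33m library. Its 557 CPM in hCD33m (16427 UMIs), against 454 CPM in hCD33M and 460 CPM in Control, gave log2 ratios of 0.30 (0.26 to 0.33) over hCD33M and 0.28 (0.24 to 0.31) over Control. The hCD33M and Control libraries differed by -0.02 (-0.06 to 0.02). Bin1 differed little, with log2 ratios of -0.05 (-0.08 to -0.02) for hCD33m and -0.05 (-0.08 to -0.02) for hCD33M over Control. Abi3 had the narrowest spread relative to its level, and all 3 of its intervals included 0, at -0.03 (-0.07 to 0.01) for hCD33m over Control, -0.04 (-0.08 to 0.00) for hCD33M over Control and 0.01 (-0.02 to 0.05) for hCD33m over hCD33M.

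In the hCD33M library, a further 4 genes were slightly higher than in both other libraries. Sorl1 differed by 0.29 (0.13 to 0.45) from Control, Ptk2b by 0.18 (0.07 to 0.28), Cd2ap by 0.14 (0.08 to 0.21) and Rin3 by 0.12 (0.01 to 0.23). Abca7 showed the widest gap, at 0.38 (0.16 to 0.60) for hCD33M over Control and -0.61 (-0.81 to -0.41) for hCD33m over hCD33M, but stayed under 20 CPM in every library. It was thus left out of the counts above. Both MS4A members lay above Control in the hCD33m library, Ms4a6b by 0.13 (0.07 to 0.20) and Ms4a6d by 0.10 (0.03 to 0.17). Ms4a6d also lay above Control in the hCD33M library, by 0.08 (0.01 to 0.16), and hCD33m over hCD33M gave 0.02 (-0.05 to 0.08). Beside these values, the 9 BAM markers summed to 306, 253 and 257 CPM in microglia-like cells of the hCD33m, hCD33M and Control libraries, with 0, 1 and 1 of them at 0. Stab1 alone made up 275, 231 and 234 CPM of these sums, and the other 8 markers summed to 31.2, 22.8 and 23.6 CPM. Their part in the MS4A values was not tested.

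**Figure D3:**
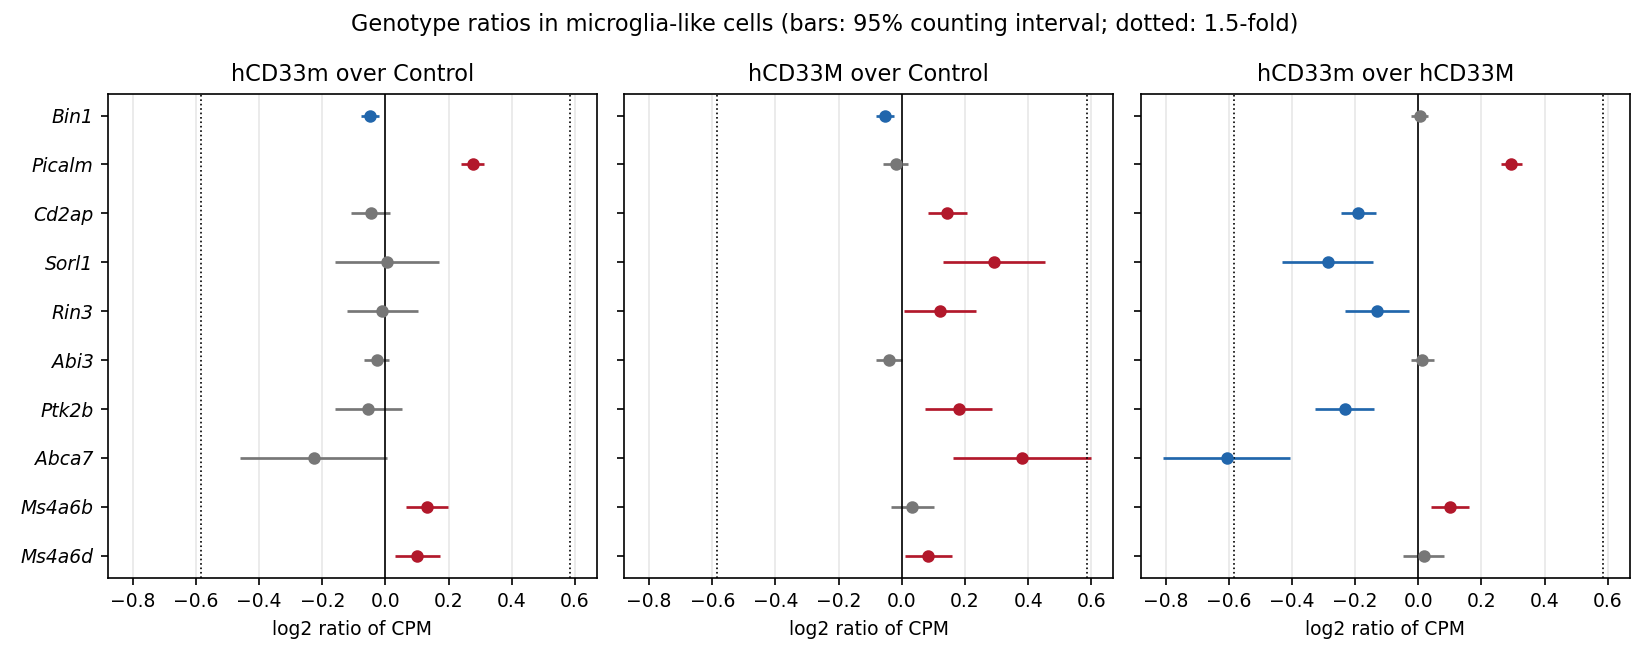
Log2 ratio of CPM in microglia-like cells for hCD33m over Control, hCD33M over Control and hCD33m over hCD33M, with exact 95% counting intervals for each of the 10 genes. Dotted lines mark 1.5-fold. Red and blue points have intervals clear of 0 above and below, and Picalm lies near 0.3 in both comparisons of hCD33m while Abca7, below 20 CPM, is the only point past a dotted line.

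The Picalm difference recurred across microglia-like clusters. Over hCD33M it was positive with an interval clear of 0 in 6 of 6 clusters, from 0.26 to 0.60 on the log2 scale. Over Control it was positive and clear of 0 in 5 of 6. The exception was the cluster whose leading genes encode the chemokines Ccl4 and Ccl3, where Picalm stood at 399, 263 and 441 CPM in the hCD33m, hCD33M and Control libraries. In the other 5 clusters the hCD33m level, from 517 to 627 CPM, lay above both other libraries of the same cluster. Monocyte-like cells showed the same order, at 330, 147 and 143 CPM, with log2 ratios of 1.16 (0.55 to 1.79) over hCD33M and 1.21 (0.52 to 1.93) over Control. In the same cells the 6 other microglial markers stood at medians of 11.3, 9.09 and 5.36% of their microglia-like level. Of the 9 monocyte markers, Ccr2 stood at 984, 2211 and 2100 CPM, Chil3 at 195, 373 and 394 CPM and Ace at 290, 102 and 194 CPM. Plac8, the highest of them, differed less, at 2826, 2997 and 2540 CPM, and Ly6c2 stood at 624, 1081 and 634 CPM. The 9 markers summed to 7050, 9434 and 9035 CPM, none of them at 0. The part of either marker list in this order was not tested. The low BAM-like cells, at 211, 196 and 188 CPM, gave intervals that included 0. Of the other members, Cd2ap, Sorl1 and Abca7 were lower in hCD33m than in hCD33M in 6 of 6 clusters, with intervals clear of 0 in 5, 2 and 4 of them. Ms4a6b was higher in hCD33m than in Control in 6 of 6, with 3 intervals clear of 0. Cells of the clusters share their library, so agreement between clusters is no replication.

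Within microglia-like cells, the Ccl4 and Ccl3 cluster was the lowest of 6 clusters in all 3 libraries for Bin1 and Cd2ap. Averaged over the libraries, Bin1 stood there at 650 CPM, against 859 CPM in its highest cluster, and Cd2ap at 155 CPM, against 209 CPM. Picalm was lowest there in hCD33m and hCD33M but not in Control, where its 441 CPM lay above 3 of the other clusters. Abi3 and Abca7 were lowest there in 2 of 3 libraries, and Rin3 and Ms4a6b only in Control, from 22 and 60 UMIs. Sorl1 was highest there in the hCD33m and hCD33M libraries and lowest in Control, at 49.3, 70.3 and 21.4 CPM in the hCD33m, hCD33M and Control libraries from 108, 111 and 14 UMIs. The Control value, from 87 cells, was not raised over that library's whole microglia-like level of 25.9 CPM, and it stood below the hCD33m and hCD33M values by more than counting error. The log2 ratio was 1.201 (0.39 to 2.12) for hCD33m over Control and 1.71 (0.91 to 2.63) for hCD33M over Control in this cluster. Ms4a6b was highest in the cluster led by the interferon-induced genes Ifit3 and Cxcl10, at 236, 204 and 191 CPM. The spread between highest and lowest cluster had a median of 0.41 on the log2 scale over the members, against 0.35 (quartiles 0.26 and 0.48) over 6620 genes. Ms4a6b (0.78) and Sorl1 (0.77) spread more than 94.6% and 94.4% of these genes, while Abca7 (0.17) and Ms4a6d (0.17) spread more than 6.22% and 6.37%.

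**Figure D4:**
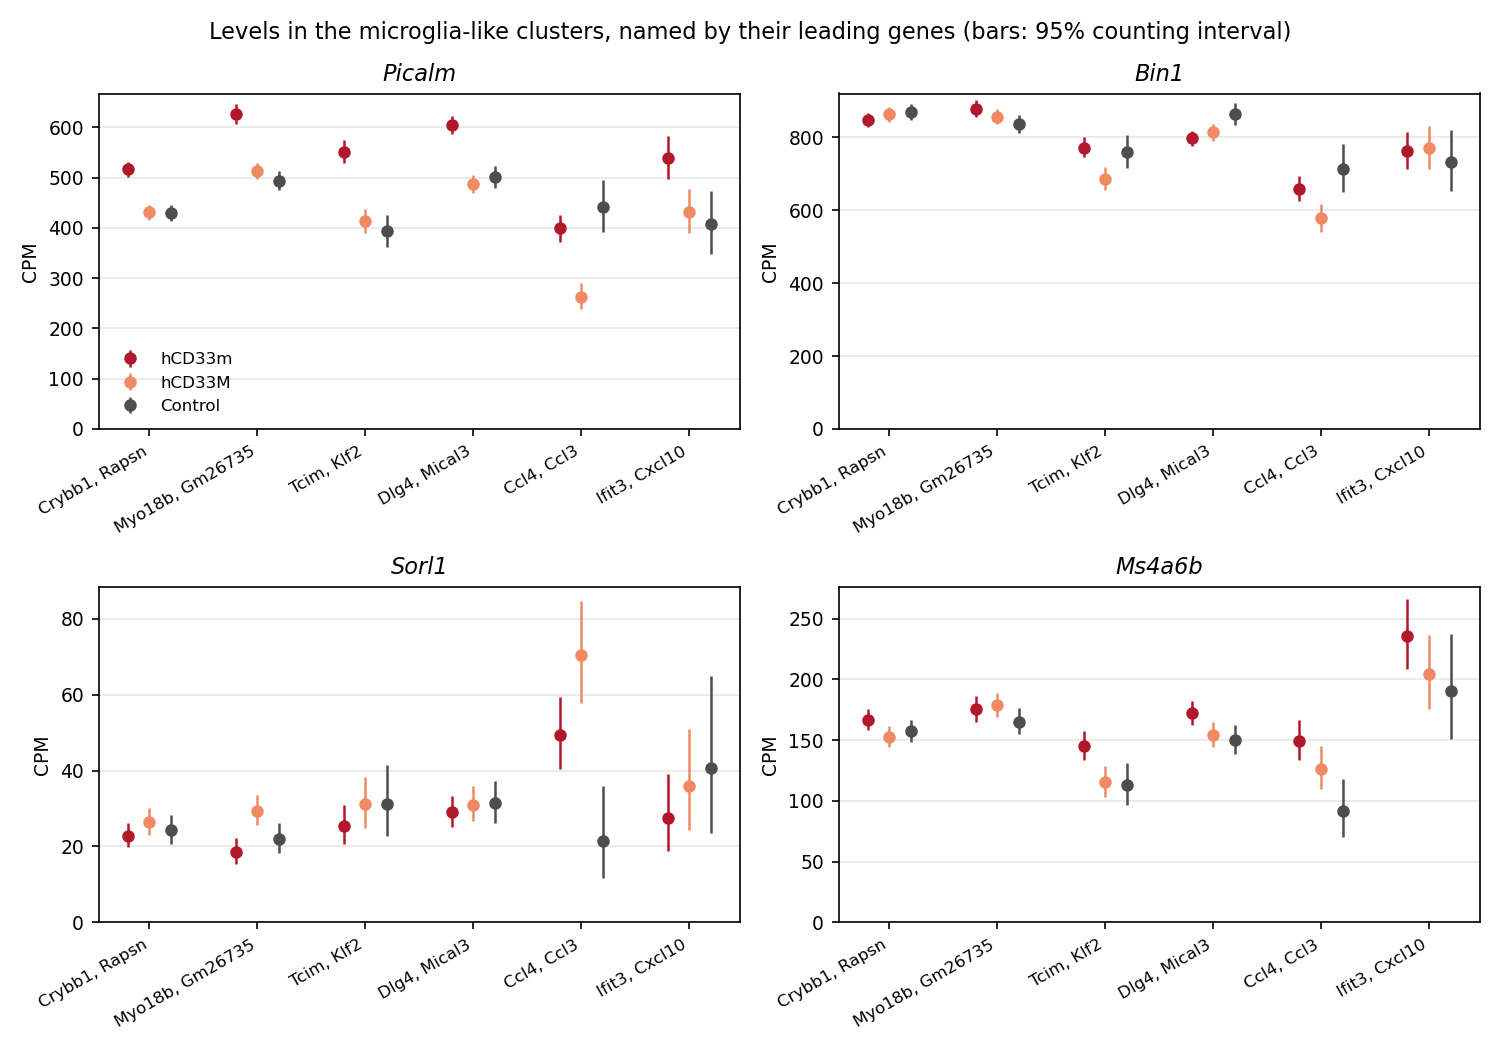
Levels of Picalm, Bin1, Sorl1 and Ms4a6b in CPM (axes from 0) in the 6 microglia-like clusters with at least 50 cells in each library, named by their 2 leading genes. Points are the hCD33m, hCD33M and Control libraries with exact 95% counting intervals. Picalm is highest in hCD33m in 5 clusters, and in the Ccl4, Ccl3 cluster Bin1 is lowest in all libraries and Picalm in hCD33m and hCD33M, where Sorl1 reaches 49.3 and 70.3 CPM.

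The share of cells with a UMI followed the same lines once each cell was thinned to 2000 UMIs. Picalm was seen in 64.7% (63.4 to 66.1%) of hCD33m, 56.4% (55.0 to 57.9%) of hCD33M and 58.9% (57.1 to 60.7%) of Control microglia-like cells. Bin1 was seen in 79.0, 78.4 and 78.2% of them. In monocyte-like cells, Bin1 was seen in 10.7, 8.70 and 11.1%, at median depths of 5816, 10635 and 10025.5 UMIs before thinning, against 5284.5, 5188 and 5567 UMIs in microglia-like cells. The monocyte-like class held only 28, 23 and 18 cells before thinning, so each of its shares rests on few cells. Ms4a6b was seen in 62.3, 62.3 and 48.3% of the low BAM-like cells and in 27.2, 26.1 and 26.0% of microglia-like cells.

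Fixed lists of related genes behaved like the members between genotypes. Of the members' paralogues, 12 of 30 reached 20 CPM in microglia-like cells and none was 1.5-fold apart in any comparison. Rin2, a further Rab5 exchange factor, had the lowest ratio of them for hCD33m over Control, with 150 CPM there, 191 CPM in the hCD33M library and 208 CPM in the Control library, a log2 ratio of -0.47 (-0.53 to -0.41) over Control. None of the 19 measurable clathrin coat and early endosome genes or 10 partners of Ptk2b was 1.5-fold apart. The same held for 11 genes of retromer and sorting partners of Sorl1, and for 12 of the WAVE complex and actin partners of Abi3 and Cd2ap. Among the other Alzheimer risk orthologues, 1 of 37 passed in hCD33m over Control, namely Apoe, the brain's main lipid carrier, which stood at 785 CPM in the hCD33m library and at 514 CPM in the Control one (log2 ratio 0.61, 0.58 to 0.65). Apoe also passed in hCD33m over hCD33M, at 785 CPM in hCD33m, against 453 CPM in hCD33M (0.79, 0.76 to 0.82), and none of 38 passed in hCD33M over Control. Apoe stood at 53555 CPM on average in the low BAM-like cells, against 584 CPM in microglia-like cells, and the 31.2, 22.8 and 23.6 CPM of the 8 BAM markers other than Stab1 in microglia-like cells stand beside this result too. Their part in it was not tested.

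Between classes more genes of the lists were called, beside the shares of all genes given above (8.98% lower and 5.66% higher in the low BAM-like cells, 13.3% lower and 9.88% higher in monocyte-like cells). In the low BAM-like cells 7 of 40 other risk orthologues were lower (Trem2, Inpp5d, Plcg2, Cass4, Blnk, Sort1 and Rhoh), and 3 were higher (Apoe, H2-Eb1 and Scimp). In monocyte-like cells 12 of 41 were lower, among them Trem2 at 287 CPM, against 2843 CPM in microglia-like cells, and 4 were higher (Apoe, H2-Eb1, Sec61g and Ace, the last a marker used to name the class). Of the paralogues, 3 MS4A genes (Ms4a4c, Ms4a6c and Ms4a7, the last a marker used to name the class) were higher in both BAM-like groupings, and 5 were called higher in monocyte-like cells (Ms4a4b, Ms4a4c, Ms4a6c, Ms4a7 and Ms4a8a). Of these, Ms4a7 had 6 and 16 UMIs in monocyte-like cells of hCD33m and hCD33M but 0 in Control. That 0 entered as 3 counts, so the Ms4a7 call is not an observed excess in Control. Bin2, the macrophage relative of Bin1, was lower in the low BAM-like cells, at 86.9 CPM, against 468 CPM in microglia-like cells. Of the clathrin and endosome genes, Itsn1, Hip1 and Eps15 were higher in the low BAM-like cells, Itsn1 at 126 CPM, against 4.30 CPM in microglia-like cells. No gene of the retromer and sorting list was called in the low BAM-like cells, and 1 of 11, Snx6, was lower in monocyte-like cells. Of 13 genes of the WAVE and actin list, 4 were higher in monocyte-like cells (Cyfip2, Rac2, Actr3 and Arpc2) and 1 was lower (Cyfip1). None of that list was called in the low BAM-like cells. Among the Ptk2b partners, Fyn was higher in monocyte-like cells, and Itgam was lower there and in the low BAM-like cells.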

How the data were processed

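Per the study's methods, reads were aligned to mm10 with Cell Ranger and imported into Seurat, which the submitters' processing notes also name. No source used here names the annotation release. The deposited values are raw counts (UMIs per gene and cell), 1 table per library, which the authors had left unnormalized. Kept cells had more than 200 but fewer than 8000 genes, no more than 10% of UMIs from mitochondrial genes and 200 or more UMIs in total, and doublets were not removed. From 2000 variable genes without the 10 members, 8 sex-linked and 25 early-response genes, 15 components, 20 neighbours and Leiden clustering at resolution 0.5 were computed (scanpy 1.11.5, leidenalg 0.10.2, Python 3.11.15). Clusters were named from marker genes. Depth is given in the report. UMIs were summed per library and class and scaled to CPM. Ratios carry exact 95% intervals (Clopper-Pearson on the split of the counts), and a count of 0 entered as 3 counts. No test between genotypes was run. Levels of 20 CPM or more entered calls of at least 1.5-fold between genotypes and 2-fold between classes. Named genes were the members, at most 4 extremes of each fixed list and the 3 genes most like each member. Alternatives changed scaling (edgeR 4.0.16 TMM and DESeq2 1.42.0 size factors), filters, resolution, thinning and the minimum level. The ratio script was tested on simulated data. The members and lists were chosen with earlier results of these data known. Promoter sequences are from RefSeq (GRCm38.p6), found for 6 of 10 members.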

Additional observations from a re-analysis of the deposited data

Results flagged for a closer look

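Bin1 lay in opposite directions in 2 classes for hCD33m over Control. Its log2 ratio was 0.64 (0.11 to 1.19) in BAM-like cells low in microglial markers, from 129 and 39 UMIs in hCD33m and Control, against -0.05 (-0.08 to -0.02) in microglia-like cells. In the same low BAM-like cells the 6 other microglial markers stood at medians of 14.9% of their microglia-like level in hCD33m and 14.5% in Control. Single markers moved with Bin1: Olfml3 stood at 17.2% of its microglia-like level in hCD33m, against 5.63% in Control, and Sparc at 2.95%, against 1.35%, while Gpr34 stood at 12.4%, against 16.9%. Their part in the Bin1 value was not tested. Ms4a6b likewise differed in direction for hCD33m over Control, at -0.74 (-1.19 to -0.30) in monocyte-like cells, from 74 and 108 UMIs over 28 and 18 cells, against 0.13 (0.07 to 0.20) in microglia-like cells. Some markers differed between the same cells, with Ccr2 at 984 CPM in the hCD33m library and 2100 CPM in the Control one. F13a1, a BAM marker, stood at 120 CPM, against 497 CPM, Chil3 at 195 CPM, against 394 CPM, and Ace at 290 CPM, against 194 CPM. Other monocyte markers differed less, with Ly6c2 at 624 CPM, against 634 CPM, and Plac8 at 2826 CPM, against 2540 CPM. Their part was not tested. Both differences are between single libraries and were not tested.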

How the results depend on the processing

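Which members counted as called depended on how the BAM-like class was drawn. No member was called over microglia-like cells in the class as clustered, against 1 after thinning to 2000 UMIs (Abi3 lower) and 3 without the top 5% of cells by UMIs. The count was 5 without cells holding a P2ry12 or Tmem119 UMI, 6 when cells were named by markers alone, and 5 in the cells low in microglial markers, an alternative added after the data were seen. Bin1 and Abi3 were lower and Ms4a6b higher in the last 4 of these. The monocyte-like count stayed within 4 to 7, against 5. Between genotypes the count stayed at 0, except for hCD33m over hCD33M, where Abca7 gave 1 with mitochondrial, ribosomal and Malat1 counts left out of the total and 1 at a minimum of 5 CPM. Picalm in hCD33m over Control ranged from 0.27 to 0.29 on the log2 scale. No paired analysis was possible because each genotype has 1 library. Leaving out a library would remove its genotype. Rare classes (18 to 127 cells a library) limit precision, and shares of cells with a UMI moved with every thinning depth.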
